A study of Homo sapiens and Mus musculus with 20 samples.

Results

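Transcripts of 39 genes that carry out homologous recombination and Fanconi anemia crosslink repair were followed in 12 bulk RNA-seq libraries of the fibroblast line IMR90, which was derived from human fetal lung. The members were taken by symbol from 17554 genes listed in any of the 3 IMR90 tables, and all 39 were found. IMR90 A485 received an inhibitor of the acetyltransferase p300 and was compared with IMR90 Control2, IMR90 MS-275 received an inhibitor of class I histone deacetylases and was compared with IMR90 Control3, and IMR90 Pyruvate received pyruvate and was compared with IMR90 Control6. Each of the 6 groups had 2 libraries of wild-type cells, the control groups carried no treatment, and the labels give no dose, time, passage or culture of origin for any library. In the study pyruvate was used to raise histone lactylation in senescent cells, and the comparisons asked whether repair genes moved with these treatments. The p-values therefore measure the spread between 2 libraries a group, which may be technical.

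Homologous recombination repairs broken DNA by copying an intact sister chromatid. The broken ends are trimmed back by the MRE11, RAD50 and NBN complex with RBBP8 and EXO1, BRCA1, PALB2 and BRCA2 then prepare the ends to pair with the sister, and BLM with TOP3A, RMI1 and RMI2 or the nucleases MUS81, EME1, GEN1 and SLX4 take the joined molecules apart. The Fanconi pathway acts on crosslinks between strands, where a core complex containing the ubiquitin ligase FANCL and its partner enzyme UBE2T attaches ubiquitin to FANCI and FANCD2, which call in nucleases such as FAN1. Since a sister chromatid exists after DNA replication, many of these genes are known to be transcribed mostly in dividing cells, and fibroblasts that stop dividing are known to express less of them.

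The stretch of 250 bases before the start site is shown for 4 members, because these genes differed in how they measured after MS-275: RAD54L, BLM and FANCD2 were among the lowest relative to control and FANCC was not lower. Sequences come from RefSeq (build GRCh38.p14), read 5′ to 3′ on the strand of the gene. Capitals mark CCAAT (a box bound by NF-Y), the E2F letters TTTCGCGC, TTTGGCGC, TTTCCCGC and TTTGCCGC, and the cell cycle homology region letters TTTGAA and TTCGAA, all searched on both strands.
RAD54L (chr1:46247513-46247762, plus strand): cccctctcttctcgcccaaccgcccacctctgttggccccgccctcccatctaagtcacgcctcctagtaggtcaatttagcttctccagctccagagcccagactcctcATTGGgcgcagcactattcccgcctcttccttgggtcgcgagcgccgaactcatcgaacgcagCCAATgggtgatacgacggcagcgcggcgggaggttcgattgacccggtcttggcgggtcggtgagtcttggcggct
BLM (chr15:90717096-90717345, plus strand): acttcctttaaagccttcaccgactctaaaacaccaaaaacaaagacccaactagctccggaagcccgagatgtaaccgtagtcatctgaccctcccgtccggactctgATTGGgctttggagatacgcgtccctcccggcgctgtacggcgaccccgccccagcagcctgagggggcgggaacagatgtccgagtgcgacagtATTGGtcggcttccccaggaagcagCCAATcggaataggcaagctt
FANCD2 (chr3:10026187-10026436, plus strand): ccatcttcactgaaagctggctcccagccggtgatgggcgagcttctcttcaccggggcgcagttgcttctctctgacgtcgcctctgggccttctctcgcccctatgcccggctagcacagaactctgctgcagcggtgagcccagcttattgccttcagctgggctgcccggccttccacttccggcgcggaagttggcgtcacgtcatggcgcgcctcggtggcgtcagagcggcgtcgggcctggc
FANCC (chr9:95317710-95317959, minus strand): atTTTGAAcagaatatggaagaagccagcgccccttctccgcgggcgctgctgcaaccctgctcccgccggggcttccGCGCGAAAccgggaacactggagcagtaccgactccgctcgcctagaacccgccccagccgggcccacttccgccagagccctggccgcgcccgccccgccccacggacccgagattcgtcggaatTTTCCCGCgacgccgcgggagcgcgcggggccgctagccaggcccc
RAD54L and BLM held CCAAT boxes, FANCD2 held none of the letters, and FANCC held E2F letters and TTTGAA. Of the 39 members 35 were matched, and FANCI, NBN, RAD54B and RMI2 were not. CCAAT was in 14 of 35 member promoters (40.0%) and in 33.2% of 27305 promoters of the same length. The E2F letters were in FANCA, FANCC and RMI1 (8.57%, against 2.87% of all promoters), and the cell cycle homology letters in BRIP1, FANCC and UBE2T (8.57%, against 14.3%). None of the searched runs contains another, and a match describes the letters only.

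The authors divided reads per gene by 1 size factor for each library, here called the normalised read count, and values are given with replicate 1 first. Library sums of these values ran from 23769581 to 47972633, and reads recovered for the A485 comparison from 39194881 to 40557867. All 9 fibroblast markers were listed in every table, at 16383 to 46367 per 1000000 of the library total, while epithelial, endothelial and immune markers each summed to at most 6.26 per 1000000. Replicates of a group were not alike throughout. Both replicate 2 libraries of the MS-275 experiment were low in long transcripts (Spearman rho of the replicate difference with transcript length -0.59 in Control3 and -0.57 in MS-275, over 12796 protein-coding genes). They were also low in GC-poor transcripts, with a rho of that difference with GC content of 0.41 in Control3 and 0.51 in MS-275. Over the 39 members these were 0.77 and 0.83. In Control2 18 proliferation markers summed to 1745 per 1000000 in replicate 1 and to 532 in replicate 2. The pyruvate fold change followed GC content (rho -0.74 over 10807 protein-coding genes). These relations are across genes, which are not independent replicates. Values with the length and GC trend removed from each library are given where this changed a result.

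Per kilobase of the canonical transcript, levels in untreated cells spanned a wide range. In Control3 the highest mean levels were those of UBE2T (632 per kilobase), MUS81 (451) and NBN (421), and the lowest those of FAN1 (3.09), RAD50 (10.8) and RAD54B (13.3). In Control2 the same ends were held by UBE2T (878), NBN (531) and MUS81 (434) and by RAD50 (9.73), FAN1 (14.00) and RAD54B (16.7). In Control6 NBN lay near the bottom, at 4.31 per kilobase, beside XRCC2 at 3.23 and FANCB at 5.22, while MUS81 was highest at 350.4. The transcripts of NBN, XRCC2 and FANCB have 36.9%, 40.0% and 36.8% GC, and that of MUS81 60.6%. The part of GC content in these levels was not tested. The tables were normalised separately, so levels were not tested across them.

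**Figure D1:**
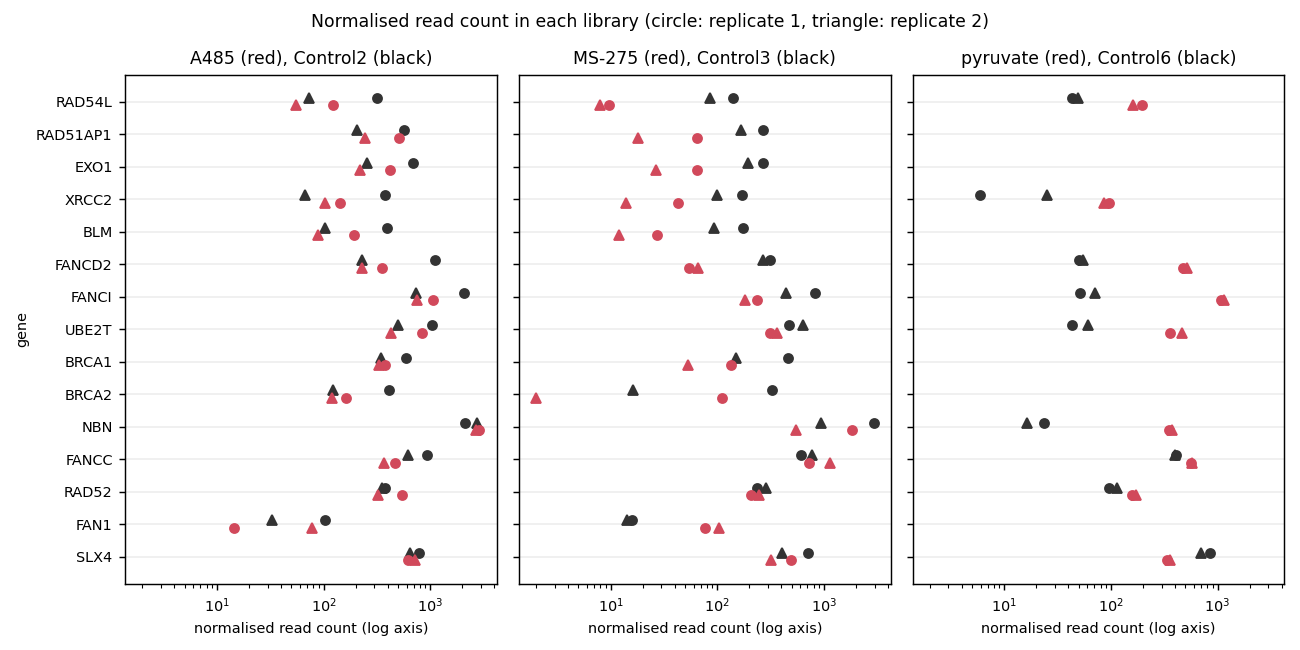
Normalised read count (log axis) of 15 members in each library, with controls in black, treated cells in red, circles for replicate 1 and triangles for replicate 2. RAD54L lay at 9.68 and 7.97 after MS-275 and at 139.7 and 84.9 in Control3, and FANCI at 1083 and 1143 after pyruvate and at 51.1 and 70.5 in Control6. Members with no points in the right panel were not analysed there.

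After MS-275 most recombination genes measured lower, with the lowest role medians in the FANCI and FANCD2 pair (-1.90) and the BRCA group (-1.62), a difference between roles that was not tested. The median log2 fold change of the 39 members was -0.70, against -0.01 over all 15883 genes tested, and 33 of 39 members lay below 0, against 50.6% of all genes. No member passed the test without a replicate block in limma with Benjamini-Hochberg adjustment (a call needed an adjusted p below 0.05 together with a log2 fold change beyond 1 in either direction), and neither did any of the other genes, so the background was 0.0% lower and 0.0% higher. At an unadjusted p under 0.05, 9 members were lower and 1 higher, among 1730 such genes in either direction (10.9% of all). Both MS-275 libraries lay below both Control3 libraries for 18 of 39 members (46.2%), against 19.3% of all genes, and above them for 4 (10.3%), against 19.5%.

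Within each replicate number the replicate 2 libraries, both low in long transcripts, were compared with each other. Over all genes with transcripts over 5000 bases the median difference was -0.02 in number 1 and 0.02 in number 2. Whether the low counts of long transcripts drop out for single genes was not tested. Taken this way, 13 members were lower by more than 1 on the log2 scale in both numbers. These were EXO1, BRCA1, BRCA2, BRIP1, XRCC2, RAD51AP1, RAD54L, RAD54B, BLM, FANCA, FANCD2, FANCI and EME1, or 33.3% of members against 4.85% of all genes. FAN1 alone among the members was higher by more than 1 in both, 2.56% of members against 6.81% of all genes. The median member difference was -0.58 in number 1 and -0.73 in number 2, and 32 of 39 members were below 0 in both, against 40.4% of all genes. Members with transcripts over 5000 bases had medians of -1.25 and -0.89, and the shorter ones -0.46 and -0.68. The labels do not say that a number marks a shared culture, so these differences carry no test here. A limma fit with a replicate block, which assumes such pairs, was run as an alternative. It called 15 members lower and 1 higher, against 953 and 1230 of 15883 genes.

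**Figure D2:**
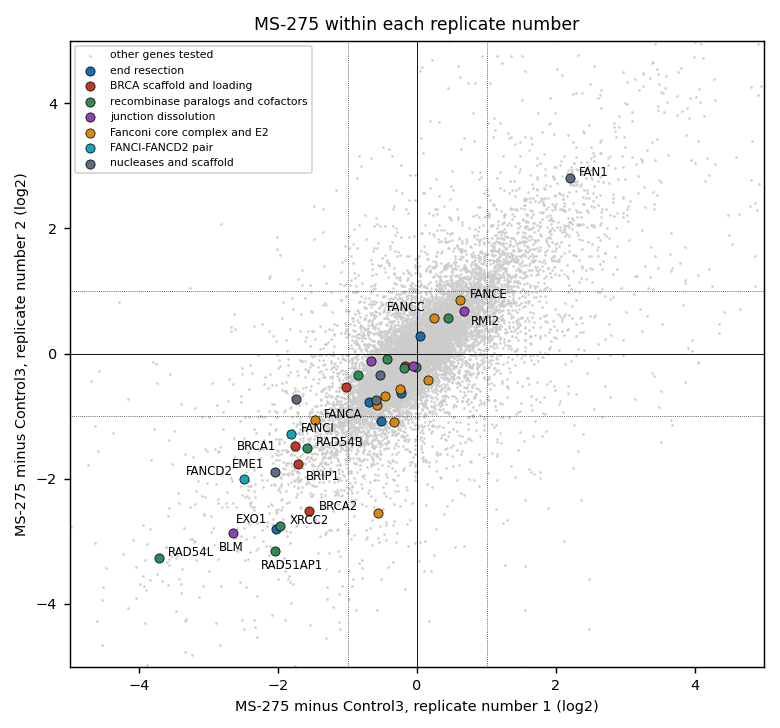
MS-275 minus Control3 on the log2(value + 1) scale within replicate number 1 (x axis) and number 2 (y axis), for all genes tested (grey) and the members coloured by role, with dotted lines at -1 and 1. The 13 members named at the lower left were below -1 in both numbers and FAN1 was the only one above 1 in both. Another 97 genes lie outside the axes.

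RAD54L, a motor protein of strand pairing (chromosome 1, 46246461 to 46278480, plus strand in hg38), measured 139.7 and 84.9 in Control3 and 9.68 and 7.97 in MS-275 (log2 fold change -3.49, SE 0.52, adjusted p = 0.173 by limma). RAD51AP1, which stimulates strand pairing, measured 270.4 and 168 in Control3 and 64.9 and 17.9 in MS-275 (log2 fold change -2.60, SE 0.73, adjusted p = 0.326). For both genes the 4 libraries separated into control and treated, with no overlap. RAD54B, a relative of RAD54L, measured 54.5 and 27.3 in Control3 and 17.4 and 8.97 in MS-275, low counts throughout (log2 fold change -1.55, adjusted p = 0.506). XRCC2, which assists strand pairing, measured 169 and 100.1 in Control3 and 42.6 and 13.95 in MS-275 (log2 fold change -2.36, SE 0.69, adjusted p = 0.342). Among related genes RAD51C, RAD51D and XRCC3 had log2 fold changes of -0.12, -0.26 and -0.59, and RAD51B one of 0.51. RAD52, which anneals single strands, measured 238 and 287 in Control3 and 208 and 245 in MS-275, and its log2 fold change of -0.21 had a 95% interval -1.13 to 0.71 that spans 0. The 9 paralogs and cofactors therefore spread from -3.49 to 0.51, with a median of -0.59.

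BLM, the helicase mutated in Bloom syndrome (chromosome 15, 90717346 to 90816166, plus strand), measured 175 and 92.98 in Control3 and 27.1 and 11.96 in MS-275 (log2 fold change -2.75, SE 0.63, adjusted p = 0.27 by limma). Its partners did not share that size: TOP3A, the topoisomerase, had a log2 fold change of -0.39, RMI1 -0.13 and RMI2 0.68. RMI2 measured 296 and 462 in Control3 and 473 and 743 in MS-275, so that both MS-275 libraries were the higher ones (adjusted p = 0.689). No test of the difference between BLM and its partners was made.

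The 5 end resection genes had a median log2 fold change of -0.73. EXO1, the exonuclease of long-range resection, measured 268 and 193 in Control3 and 64.9 and 26.9 in MS-275 (log2 fold change -2.41, SE 0.57, adjusted p = 0.278 by limma), and its groups did not overlap. The short-range MRE11 complex behaved otherwise: MRE11, its nuclease, measured 837 and 352 in Control3 and 865 and 427 in MS-275 (log2 fold change 0.16, 95% interval -1.41 to 1.73). NBN, its regulatory subunit, measured 2942 and 947 in Control3 and 1825 and 551 in MS-275 (log2 fold change -0.73, adjusted p = 0.88). In both genes the replicate 2 libraries were the low ones in each group, and the groups overlapped. RAD50, the third subunit, had a log2 fold change of -0.43 and RBBP8, the CtIP cofactor that starts resection, one of -0.80.

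All 5 genes of the BRCA group had a log2 fold change below 0, with a median of -1.62. BRCA1 measured 458 and 149 in Control3 and 135 and 52.8 in MS-275 (log2 fold change -1.62, SE 0.76, adjusted p = 0.576 by limma), and both treated libraries lay below both control libraries. BARD1, its obligate partner, measured 374 and 212 in Control3 and 183 and 146 in MS-275 (log2 fold change -0.78, adjusted p = 0.647), also without overlap. BRCA2, which acts before strand pairing, measured 328 and 16.2 in Control3 and 111 and 1.99 in MS-275, where the last value rests on very few reads (log2 fold change -2.03, 95% interval -7.79 to 3.73). Its groups overlapped, because Control3 replicate 2 was below MS-275 replicate 1. BRIP1, a helicase bound by BRCA1, had a value of -1.74 (adjusted p = 0.644). PALB2, the bridge between BRCA1 and BRCA2, measured 535 and 325 in Control3 and 473 and 283 in MS-275 and was the smallest difference of the group (log2 fold change -0.19, 95% interval -1.39 to 1.01).

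In the Fanconi pathway the ubiquitinated pair was lower by more than most of the core complex. FANCD2 (chromosome 3, 10026370 to 10101932, plus strand) measured 310.0 and 267 in Control3 and 54.2 and 65.8 in MS-275 (log2 fold change -2.25, SE 0.38, adjusted p = 0.195 by limma) and FANCI measured 824 and 444 in Control3 and 234 and 181 in MS-275 (log2 fold change -1.55, SE 0.45, adjusted p = 0.337). Neither pair of groups overlapped. Among the 9 genes of the core complex and its E2 enzyme the median was -0.57. FANCA, a core subunit, measured 304 and 229 in Control3 and 109 and 109.6 in MS-275 (log2 fold change -1.26, SE 0.37, adjusted p = 0.348), and UBE2T, the E2, 470.5 and 639.7 in Control3 and 315 and 363 in MS-275 (log2 fold change -0.70, adjusted p = 0.606). FANCL, the ligase, measured 467 and 171 in Control3 and 369.9 and 79.7 in MS-275, with overlapping groups (log2 fold change -0.71, 95% interval -3.08 to 1.66). FANCC measured 616 and 774 in Control3 and 728 and 1151 in MS-275 (log2 fold change 0.41, adjusted p = 0.836), and FANCE, the subunit that binds FANCD2, 315 and 471 in Control3 and 486 and 856 in MS-275 (log2 fold change 0.74, adjusted p = 0.669). FANCB, FANCF, FANCG and FANCM had log2 fold changes of -0.14, -0.41, -0.57 and -1.56, and that of FANCM rested on 7.97 in MS-275 replicate 2.

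FAN1, the Fanconi-associated nuclease (chromosome 15, 30890559 to 30943108, plus strand), had the highest log2 fold change of the members after MS-275. It measured 15.8 and 14.1 in Control3 and 76.5 and 105 in MS-275 (log2 fold change 2.50, SE 0.47, adjusted p = 0.224 by limma), from a level that was the lowest per kilobase of all members in Control3. GEN1, a resolvase of crossed strands, measured 499 and 161 in Control3 and 149 and 96.7 in MS-275 (log2 fold change -1.23, adjusted p = 0.627). EME1, the partner of MUS81, was at 99.05 and 94.9985 in Control3 and 23.2 and 24.9 in MS-275 (log2 fold change -1.97, adjusted p = 0.251), and MUS81 itself had a log2 fold change of -0.67. SLX4, the scaffold for these nucleases, had one of -0.44. In bulk RNA fewer cells in S phase and less RNA per cell cannot be told apart. All 19 proliferation markers were below 0 in this comparison (median -2.42), 16 of them by more than 1 in both numbers, and their part in the lower member values was not tested.

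After pyruvate most of the tested members measured higher, and the largest rises were in the ubiquitinated Fanconi pair and in NBN. Of the 39 members 26 were tested, and BARD1, BLM, BRCA1, BRCA2, BRIP1, EXO1, FAN1, FANCM, GEN1, RAD50, RAD51AP1, RAD54B and RMI1 were not analysed here. EXO1, BRCA1, BRCA2, BRIP1, RAD51AP1, RAD54B and BLM, which were lower within both MS-275 numbers, therefore have no pyruvate value. Higher calls by limma with Benjamini-Hochberg adjustment numbered 12 of 26 members (46.2%), against 31.0% of the 12013 genes tested, and 1 was called lower (3.85%), against 23.1%. The member median log2 fold change was 0.95 and that of all genes -0.01. Both pyruvate libraries lay above both Control6 libraries for 16 members (61.5%), against 45.2% of genes, and below them for 5 (19.2%), against 45.3%. The fold change of this table followed GC content, so these counts stand beside the GC values given after the genes.

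FANCI (chromosome 15, 89243945 to 89317261, plus strand) measured 51.1 and 70.5 in Control6 and 1083 and 1143 in Pyruvate (log2 fold change 4.19, SE 0.19, adjusted p = 4.31e-09 by limma). FANCD2 measured 50.1 and 54.3 in Control6 and 471 and 520.0 in Pyruvate (log2 fold change 3.22, SE 0.21, adjusted p = 6.57e-08), and UBE2T, the enzyme that acts on this pair, 43.2 and 60.8 in Control6 and 358 and 466 in Pyruvate (log2 fold change 2.97, SE 0.25, adjusted p = 6.41e-07). The 3 rose together, and for each the replicates of a group lay close compared with the gap between groups. FANCL, the ligase, rose from 69.7 and 44.5 to 116 and 146 (log2 fold change 1.21, SE 0.32, adjusted p = 0.00461), and FANCA from 284 and 164 to 484.7 and 449.8 (log2 fold change 1.11, SE 0.23, adjusted p = 0.000822). FANCC measured 409.6 and 399 in Control6 and 561 and 572 in Pyruvate, a difference that passed on p and not on size (log2 fold change 0.49, adjusted p = 0.00386). FANCB, FANCE, FANCF and FANCG were not called, with log2 fold changes of 1.13, 0.13, -0.28 and 0.28. With the length and GC trend removed FANCE (1.05, adjusted p = 0.000614) and FANCG (1.19, adjusted p = 0.000219) were called higher and FANCF (-1.39, adjusted p = 0.000113) lower, while FANCB was -0.44, and FANCB was called higher with equal library totals (1.42, adjusted p = 0.0466) and without Control6 replicate 2 (1.66, adjusted p = 0.0367). The calls on FANCA and FANCL ended without Control6 replicate 2 (log2 fold changes 0.72 and 0.89), with quantile normalization (0.58 and 0.63) and in 1 fit over all 12 libraries (adjusted p = 0.0872 and 0.147).

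All 3 end resection genes in this table rose. NBN measured 23.6 and 16.3 in Control6 and 351 and 374 in Pyruvate (log2 fold change 4.14, SE 0.30, adjusted p = 1.68e-07 by limma), RBBP8 35.4 and 15.2 in Control6 and 228 and 167 in Pyruvate (log2 fold change 3.02, SE 0.41, adjusted p = 3.61e-05), and MRE11 45.2 and 31.5 in Control6 and 197 and 197 in Pyruvate (log2 fold change 2.35, SE 0.30, adjusted p = 1.97e-05). PALB2, the only tested gene of the BRCA group, rose as well, at 15.7 and 35.8 in Control6 and 119.9 and 187 in Pyruvate (log2 fold change 2.60, SE 0.44, adjusted p = 0.000183). Among the paralogs and cofactors XRCC2 rose, at 5.89 and 24.96 in Control6 and 96.3 and 86.8 in Pyruvate (log2 fold change 2.79, SE 0.61, adjusted p = 0.00125), with low control counts. RAD54L rose from 43.2 and 48.8 to 198 and 161 (log2 fold change 1.93, SE 0.28, adjusted p = 6.09e-05), and RAD51C rose by 2.19 on the log2 scale (adjusted p = 0.000137). RAD52 measured 95.3 and 115 in Control6 and 157 and 171 in Pyruvate and stayed under the fold minimum (log2 fold change 0.64, adjusted p = 0.0262), and RAD51B, RAD51D and XRCC3 lay between -0.33 and 0.31.

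Genes that act on joined molecules differed among themselves, and none of them was called higher on the deposited scale. SLX4, the nuclease scaffold (chromosome 16, 3581181 to 3611606, minus strand), fell, at 853 and 706 in Control6 and 332 and 357 in Pyruvate (log2 fold change -1.17, SE 0.14, adjusted p = 8.85e-06 by limma), and it was the only member called lower. MUS81 measured 832 and 825 in Control6 and 468 and 493 in Pyruvate (log2 fold change -0.78, adjusted p = 5.16e-05), short of the fold minimum. RMI2 and TOP3A, the dissolution genes in this table, had log2 fold changes of -0.53 (adjusted p = 0.0185) and -0.29 (adjusted p = 0.0131). EME1 had one of 0.78 (adjusted p = 0.0716). Both Pyruvate libraries of EME1 lay above both controls, and it was called higher with the trend removed (1.22, adjusted p = 0.0144), with equal library totals (1.09, adjusted p = 0.0178) and without Control6 replicate 1 (1.11, adjusted p = 0.0154). MUS81 was at 0.26 with the trend removed.

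The members that rose were mostly GC-poor, and so were the genes that rose in general. Of the 13 members with under 45% GC in their canonical transcript 10 were called higher, against 2936 of all 4310 such genes. The median log2 fold change of these members was 2.60, against 1.61 for all such genes. Of the 13 members at 45% or more 2 were called higher and 1 lower, against 760 and 2651 of all 7578 such genes. The median of these members was 0.13, against -0.67 for all such genes. Across the 26 members the fold change had a rho of -0.68 with GC content. With the length and GC trend removed from each library 8 of the 12 rises were still called, and MRE11, RAD51C, XRCC2 and FANCL were not. The same fit newly called EME1, FANCE, FANCG and XRCC3 higher and RAD51D and FANCF lower, so that 12 of 26 members were higher and 2 lower, against 14.7% and 14.3% of 11888 genes. In that fit the log2 fold change of FANCI was 2.80 (adjusted p = 4.47e-07), RAD54L 2.56 (adjusted p = 1.71e-05), NBN 2.34 (adjusted p = 6.57e-05), MRE11 0.34 (adjusted p = 0.34) and FANCL -0.26. RAD54L, at 53.0% GC, and FANCA, at 55.4%, were the members called higher at 45% GC or more without that removal. The call on SLX4 ended in that fit (log2 fold change -0.74) and also with equal library totals. Of 18 proliferation markers tested 14 were called higher (median 2.05), and their part in the members' rise was not tested.

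**Figure D3:**
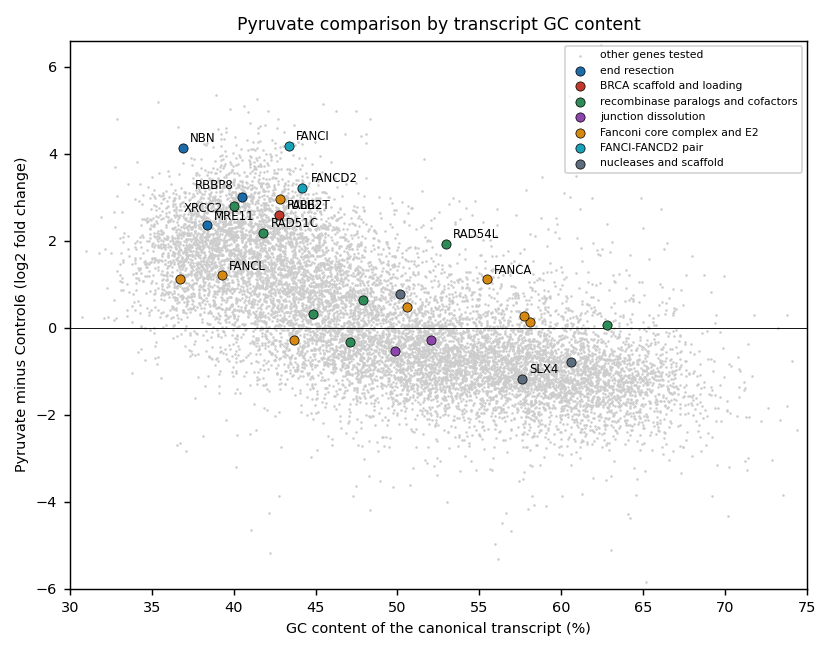
Pyruvate minus Control6 (log2 fold change, y axis) against the GC content of the canonical transcript in percent (x axis), for all genes tested (grey) and members coloured by role, with the called members named. NBN, FANCI and FANCD2 sit at 3.22 or more among GC-poor genes that were mostly above 0, while RAD54L and FANCA stand above most genes of their GC content. Another 125 genes have no annotated GC content or lie outside the axes.

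After A485 no member passed the test, and the small lower shift of the family depended on single libraries. Calls over all 16084 genes tested were 7.06% lower and 3.31% higher by limma, and members called were 0 of 39 in each direction. At an unadjusted p under 0.05, RAD51D, FANCB and FANCC were lower and FANCL higher, 4 of 39 members against 30.8% of all genes. edgeR on the recovered reads likewise called 0 members, and DESeq2 called FANCB lower. The member median log2 fold change was -0.32, against 0.01 over all genes, but it was 0.07 with equal library totals, which move the median of all genes to 0.40, 0.22 without Control2 replicate 1 and -0.03 without A485 replicate 2. Both A485 libraries lay below both Control2 libraries for 6 members and above them for 6 (15.4% each), against 30.7% and 30.4% of all genes. The proliferation markers had a median of -0.92 in this comparison, -1.62 in number 1 and -0.17 in number 2, and 0 of 19 were called. Within numbers the members had medians of -0.51 and -0.04. The fibroblast markers took 42856 and 46367 per 1000000 in Control2 and 16691 and 18486 in A485, and 8 of 9 were called lower (median -2.03), with all 9 below 0. Their part in the member values was not tested.

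In the BRCA group Control2 replicate 1 was often the highest library. BRCA1 measured 589 and 343 in Control2 and 373 and 333 in A485 (log2 fold change -0.35, SE 0.33, adjusted p = 0.522 by limma), BRCA2 411 and 124 in Control2 and 162 and 119 in A485 (log2 fold change -0.69, adjusted p = 0.479) and BARD1 743 and 299 in Control2 and 514 and 203 in A485 (log2 fold change -0.54, adjusted p = 0.579). In each of these genes Control2 replicate 1 stood above the other 3 libraries and the groups overlapped. BRIP1 had the third lowest log2 fold change of all members, at -0.94, from 1155 and 447 against 517 and 272 (adjusted p = 0.283). PALB2 was an exception, with both A485 libraries above both controls, at 494 and 474 in Control2 and 598 and 645 in A485 (log2 fold change 0.36, 95% interval -0.17 to 0.89).

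The same library was highest for FANCD2, which measured 1099 and 229 in Control2 and 357 and 231 in A485 (log2 fold change -0.81, adjusted p = 0.494), and for FANCI, which measured 2071 and 729 in Control2 and 1070.4 and 748 in A485 (log2 fold change -0.46, adjusted p = 0.576). FANCA measured 793 and 225 in Control2 and 240.2 and 288 in A485 (log2 fold change -0.68, adjusted p = 0.476). Without Control2 replicate 2 FANCA and FANCD2 were at -1.59 and -1.93, and without Control2 replicate 1 neither was below 0. UBE2T measured 1047 and 494 in Control2 and 845 and 430.2 in A485 (log2 fold change -0.25, 95% interval -1.39 to 0.88).

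The other core complex genes had values on both sides of 0, and none was called. FANCB, a core subunit, had the lowest value of all members, at 409 and 198 in Control2 and 101 and 118 in A485 (log2 fold change -1.38, SE 0.43, adjusted p = 0.0917 by limma). FANCC measured 931 and 623 in Control2 and 467 and 367 in A485 (log2 fold change -0.88, SE 0.29, adjusted p = 0.101), and both A485 libraries lay below both controls. FANCL measured 570.4 and 465 in Control2 and 1084 and 778 in A485 (log2 fold change 0.83, SE 0.26, adjusted p = 0.0885), and both A485 libraries lay above. FANCM had a log2 fold change of 0.39, from 411 and 219 against 401 and 386. FANCE, FANCF and FANCG lay between -0.32 and 0.31.

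Recombination factors had wide errors after A485. RAD54B had the highest log2 fold change of the members, from 95.2 and 7.34 in Control2 and 179.5 and 95.3 in A485 (log2 fold change 2.22, SE 1.13, adjusted p = 0.244), a value that rests on the low count in Control2 replicate 2. RAD54L measured 318 and 73.4 in Control2 and 124 and 55.2 in A485 (log2 fold change -0.88, 95% interval -2.77 to 1.01) and RAD51AP1 571 and 206 in Control2 and 514 and 246 in A485 (log2 fold change 0.05, 95% interval -1.36 to 1.46). RAD52 measured 377 and 351 in Control2 and 541 and 327 in A485 (log2 fold change 0.21, adjusted p = 0.7). RAD51D measured 863 and 1015 in Control2 and 496 and 571 in A485, with close replicates (log2 fold change -0.81, adjusted p = 0.063). RAD51B, RAD51C, XRCC2 and XRCC3 lay between -0.40 and 0.35.

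Resection and resolution genes were close to control or spread by replicate. MRE11 measured 1221 and 834 in Control2 and 1403 and 1234 in A485 (log2 fold change 0.38, adjusted p = 0.342) and NBN 2134 and 2772 in Control2 and 2871 and 2704 in A485 (log2 fold change 0.20, 95% interval -0.27 to 0.67). EXO1 measured 683 and 256 in Control2 and 422 and 218 in A485 (log2 fold change -0.46, adjusted p = 0.616), BLM 395 and 104 in Control2 and 191 and 89.1 in A485 (log2 fold change -0.63, adjusted p = 0.592) and GEN1 954 and 488 in Control2 and 779.6 and 621 in A485 (log2 fold change 0.03, 95% interval -0.84 to 0.90). EME1 measured 203 and 58.7 in Control2 and 60.7 and 28.5 in A485 (log2 fold change -1.37, adjusted p = 0.258). RAD50, RBBP8, RMI1, RMI2, TOP3A, FAN1, SLX4 and MUS81 lay between -0.78 and 0.21. RAD50 and FAN1 were low in this table, with at most 88.1 and 103 normalised counts in any library.

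**Figure D4:**
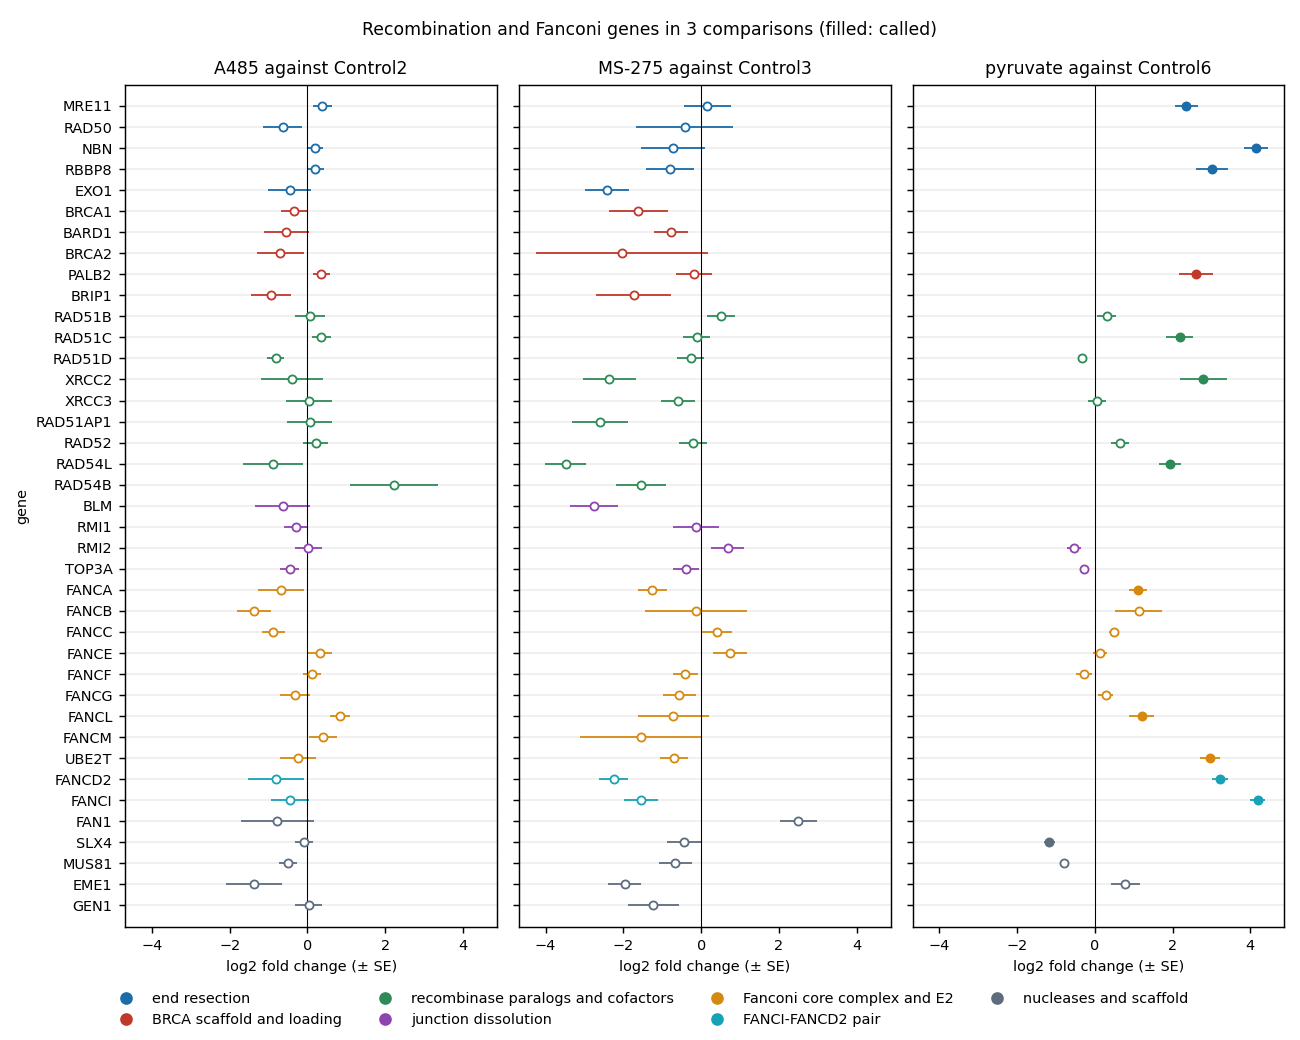
Log2 fold change ± SE (x axis) of each member (y axis) in the A485, MS-275 and pyruvate comparisons, with 2 libraries a group, colours for roles and filled points for members called by limma. Filled points occur only in the pyruvate panel, where 12 lie above 0 and SLX4 below, while 33 of 39 points in the MS-275 panel lie below 0.

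Set side by side, several members had large values of opposite sign after MS-275 and after pyruvate, in comparisons with separate controls. FANCD2 had log2 fold changes of -2.25 and 3.22, FANCI -1.55 and 4.19, XRCC2 -2.36 and 2.79, RAD54L -3.49 and 1.93, and FANCA -1.26 and 1.11. With the length and GC trend removed the pyruvate value of XRCC2 was 0.96 (adjusted p = 0.19). PALB2 had values of -0.19 and 2.60, and MRE11 of 0.16 and 2.35, of which the last was 0.34 with the trend removed. SLX4, MUS81, RAD51D and TOP3A had negative values in all 3 comparisons. These were -0.09, -0.44 and -1.17 for SLX4 and -0.49, -0.67 and -0.78 for MUS81. RAD51D had -0.81, -0.26 and -0.33, and TOP3A -0.46, -0.39 and -0.29. With the length and GC trend removed SLX4 was at 0.20 after A485 and MUS81 at 0.26 after pyruvate. RAD51D and TOP3A stayed below 0 with that removal. With equal library totals SLX4 was at 0.30 after A485 and TOP3A at 0.02 after pyruvate. Differences between comparisons were not tested, since each table was normalised alone.

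As a share of the library total, the 26 members listed in every table took 479 and 300.1 per 1000000 in Control2 and 516 and 404 in A485. They took 357 and 295 per 1000000 in Control3 and 243 and 218 in MS-275, where both treated libraries were below both controls. In the pyruvate experiment the values were 225 and 213 in Control6 and 364 and 383 in Pyruvate, and the groups again did not overlap. The proliferation markers went the same way in the last 2 experiments, with 798 and 613 per 1000000 in Control3 against 169 and 182 in MS-275, and 327 and 321 in Control6 against 1402 and 1409 in Pyruvate. After A485 they took 882 and 579 per 1000000, between the 2 Control2 libraries.

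**Figure D5:**
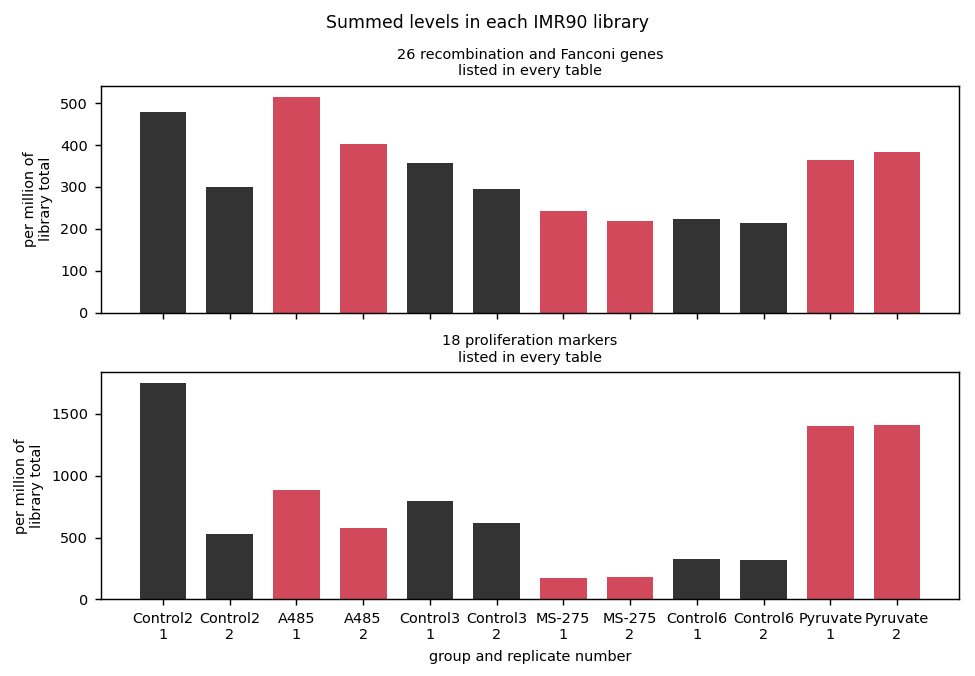
Summed level per 1000000 of the library total (y axis) of 26 members (upper panel) and of 18 proliferation markers (lower panel) in each of the 12 libraries, with controls in black and treated cells in red. Members took 218 to 243 per 1000000 after MS-275 and 295 to 357 in Control3, and 364 to 383 after pyruvate and 213 to 225 in Control6.

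A list of 55 other genes of these pathways, among them checkpoint kinases, replication protein A and regulators of FANCD2, was followed in the same libraries. After MS-275 0 of 52 tested were called by limma, 6 had an unadjusted p under 0.05 (11.5%, against 10.9% of all genes), 40 lay below 0 (76.9%, against 50.6%, median -0.24) and 8 were lower by more than 1 in both numbers (15.4%, against 4.85%). H2AX, the histone marked at breaks, measured 2219 and 2511 in Control3 and 573 and 862 in MS-275 (log2 fold change -1.75, SE 0.36, adjusted p = 0.243). The highest by smallest p were BABAM2 (log2 fold change 0.51) and SFR1 (log2 fold change 0.45), which were not called.

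After pyruvate 19 of the 46 tested were called higher (41.3%, against 31.0% of all genes) and 8 lower (17.4%, against 23.1%), with a median log2 fold change of 0.50. With the length and GC trend removed 9 of the 46 were called higher and 3 lower, against 14.7% and 14.3% of all genes. Of the genes given next, USP1 and WDR48 had 38.3% and 42.1% GC, and EME2 and RTEL1 64.4% and 62.4%. USP1, which takes ubiquitin off FANCD2, measured 21.6 and 19.5 in Control6 and 378 and 411 in Pyruvate (log2 fold change 4.20, SE 0.28, adjusted p = 6.92e-08 by limma), and its partner WDR48 measured 60.9 and 29.3 in Control6 and 607 and 579 in Pyruvate (log2 fold change 3.78, SE 0.30, adjusted p = 3.84e-07). EME2, a relative of EME1, measured 696 and 656 in Control6 and 178 and 169 in Pyruvate (log2 fold change -1.96, SE 0.15, adjusted p = 2.1e-07), and the helicase RTEL1 51.1 and 48.8 in Control6 and 28.5 and 11.1 in Pyruvate, with low counts (log2 fold change -1.43, SE 0.55, adjusted p = 0.0317). After A485 0 of 52 were called by limma, 6 had an unadjusted p under 0.05 (11.5%, against 30.8% of all genes) and the median was -0.01. Those with the smallest p were RNF8 and SPIDR above 0 (log2 fold changes 0.69 and 0.79) and MAD2L2 and ERCC1 below 0 (-0.82 and -0.63).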

How the data were processed

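RNA-seq of total RNA from 12 IMR90 libraries was used, and 8 mouse muscle libraries were not used here. The authors trimmed reads with Trim Galore (version 0.6.10), aligned them to hg38 with HISAT2 (version 2.2.1), used SAMtools (version 1.7), counted genes with featureCounts (version 2.0.6) and divided the counts by DESeq2 (version 1.34.0) size factors, so that the deposited values are a signal in size-factor-scaled reads. Annotation and strand setting are not given in the sources used here, so overlapping and antisense genes may share reads. Libraries were grouped by title.

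Values were transformed to log2(value + 1), a scale that understates changes of low genes, and limma was fitted, for each comparison, to genes averaging 10 or more in its 4 libraries (version 3.58.1, R 4.3.3, eBayes with an intensity trend, no covariate). P-values are two-sided and were adjusted by Benjamini-Hochberg across every gene fitted. A call needed an adjusted p under 0.05 and an absolute log2 fold change above 1. In the A485 comparison 100% of values were whole multiples of 1 read within 0.1, and edgeR (version 4.0.16) on these reads called 542 genes higher and 1122 lower and DESeq2 (version 1.42.0) 782 and 1543. Replicates were compared by a mean chi-square statistic per gene, which ran from 4.33 (Pyruvate) to 467 (MS-275). It was taken on scaled values without a p-value, so it only describes the spread. Lengths, GC content and positions came from GENCODE release 44 canonical transcripts. The trend removal fitted a smooth curve of each library on length and GC content. The main limma fit was tested on simulated data, and the alternatives were not part of that test. The simulated libraries were drawn independently, without a length or GC trend or a shared replicate effect. That test therefore does not cover these features of the data.

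The members, gene lists and tests were chosen with earlier results of these data known. Values are given for 18 core members and for the 3 largest rises and falls in each comparison, and for other pathway genes the 2 largest in each direction among those called, or those with the smallest p. One gene that this rule names is not reported here. Alternatives were the pseudocount, the filter, the scaling, the trend removal, eBayes without trend, the replicate block, a shared fit, count tests, the fold minimum and leaving out each library. Other steps used Python 3.11.15, numpy 2.4.6, pandas 2.3.3, scipy 1.17.1 and matplotlib 3.10.9.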

Additional observations from a re-analysis of the deposited data

How the results depend on the processing

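With 2 libraries a group, 1 library can decide a value, and 42 single-gene values of 898 alternatives changed sign. For those changes and the ones below the cause was not tested, beyond what leaving out a library shows. Recovery of reads was made for the A485 comparison only. For MS-275 and pyruvate no count test was run, which does not mean that one was impossible. The trends with the replicate block, the alternatives of the within-number differences and those of the other pathway genes were chosen after seeing the data. Of 267 alternatives for counts and medians 222 were close to the reported value. Low counts limit several members, among them BRCA2, RAD54B, RAD54L and FAN1 in the MS-275 experiment and XRCC2 and FANCB in Control6.

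The replicate numbers are not said to pair libraries. Deviations of same-numbered libraries correlated at 0.32 (A485), 0.73 (MS-275) and 0.002 (pyruvate). With the replicate block 15 members were called lower and 1 higher after MS-275 (all genes 953 and 1230), with 8 other pathway genes lower. Removing the length and GC trend as well left 15 and 1 (all genes 963 and 1072), with 8. After A485 the block gave 1 member lower (FANCB) and 1 higher (RAD54B), against 1616 and 870 of 16084 genes. With the trend removed as well 1 member was lower and 1 other pathway gene higher (all genes 1379 lower and 1082 higher), with RAD51AP1 at -0.23. After pyruvate the block changed no member call. With the trend removed as well 2 members were called lower and 12 higher, against 1717 and 1782 of 11888 genes. In that fit 3 other pathway genes were lower and 9 higher, FANCL was -0.26 and MUS81 0.26.

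Scaling moved the pyruvate and A485 values. Equal library totals put the all-gene median at 0.40 (A485), -0.15 (MS-275) and 0.30 (pyruvate), and higher calls went from 31.9% to 65.1% of calls after A485 and from 57.3% to 71.7% after pyruvate. Quantile normalization moved that median to 0.12 after A485 and -0.17 after pyruvate, with 42.6% and 49.3% of calls higher. Removal of the length and GC trend alone gave 41.8% and 50.8%. After A485 equal totals called 1 member (FANCL) and 3 other pathway genes higher, against 1677 of 16119 genes, with BRCA1 at 0.044 and UBE2T at 0.14. After pyruvate equal totals called 0 members lower and 14 higher, against 1741 and 4402 of 12013 genes. They called 5 other pathway genes lower and gave a member median of 1.25. Quantile normalization called 3 members lower and 10 higher, against 3228 and 3143 of 12013 genes, with a median of 0.42 and RAD52 at -0.035. Trend removal called 2 members lower and 12 higher, against 1697 and 1752 of 11888 genes, with 3 other pathway genes lower and 9 higher. It put FANCL at -0.26 and MUS81 at 0.26, and RAD51AP1 at -0.23 after A485. A pseudocount of 10 gave a pyruvate median of 0.73 and a mean of at least 50 one of 0.78. With a fold minimum of 0.58, 2 members and 14 other pathway genes were called lower after pyruvate, and with none 5 and 15. The shares of all genes at these minimums are not given here. One fit over all 12 libraries called 1 of 26 members (RAD54L) and 3 other pathway genes lower after MS-275, against 267 of 11989 genes. On the A485 reads DESeq2 called 1 member lower, against 1543 of 16084 genes. edgeR and DESeq2 put RAD51AP1 at -0.017 and -0.032 and GEN1 at -0.025 and -0.042.

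Leaving out 1 library at a time moved the member median from -0.70 to 0.22 after A485, from -1.26 to -0.39 after MS-275 and from 0.75 to 1.05 after pyruvate. After A485 0 to 2 members were called lower (FANCA and FANCD2 without Control2 replicate 2) and 0 to 1 higher (RAD54B without Control2 replicate 1), with 0 to 1 other pathway genes in each direction. After MS-275 0 to 6 members (BLM, BRCA2, BRIP1, EXO1, RAD51AP1 and RAD54L without Control3 replicate 2) and 0 to 2 other pathway genes were called lower. The lone sample left in a group is assumed to vary like the other group, so no conclusion is drawn from these counts of calls. The shares of all genes called in these fits are not given here, so the counts do not show whether members exceeded the background. The A485 values ran from -0.74 to 0.041 for BRCA1, -1.56 to 0.17 for BRCA2, -1.21 to 0.13 for BARD1, -1.93 to 0.17 for RAD54L, -1.17 to 0.25 for EXO1, -1.59 to 0.33 for BLM and -1.59 to 0.22 for FANCA. They ran from -1.93 to 0.32 for FANCD2, -1.21 to 0.29 for FANCI, -0.79 to 0.29 for UBE2T, -0.68 to 0.79 for RAD51AP1, -0.45 to 0.51 for GEN1, -0.063 to 0.84 for FANCM and -0.15 to 0.57 for RAD52. The MS-275 values ran from -4.65 to 0.58 for BRCA2, -0.56 to 0.18 for PALB2, -1.60 to 0.13 for NBN, -1.81 to 0.39 for FANCL and -0.46 to 0.79 for MRE11.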
